A study of Mus musculus with 12 samples.

Results

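The genes described here are the 6 prostaglandin synthesis genes Ptgs1, Ptgs2, Ptgds, Hpgds, Ptges and Ptgis, chosen by name for their place in the pathway. A gene was measured through the probe sets that the platform annotation maps to it alone. This gave 9 probe sets for 5 of the 6 genes, out of 45037 probe sets and 18193 genes tested, and Ptgs1 was not analysed here. Where a gene had several, the one brightest on average across the 12 arrays gave its value, and the others serve as a check.

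The arrays hold total RNA of male genital ridges (testes) of 2 mouse strains at 3 embryonic stages. M19 is the chromosome substitution strain 129.MOLF-Chr 19, which carries chromosome 19 of the MOLF strain on a 129 background and is known for frequent testicular germ cell tumours. The strain 129/Sv (129) shares that background and is the comparison. Groups were M19 at E13.5, E15.5 and E17.5 and 129 at E13.5, E15.5 and E17.5, with 2 arrays each and no treatment in any group. RNA came from pooled organs, 40 pairs of testes for 2 arrays, so that both arrays of a group may share a pool and the p-values may measure technical spread only. None of the 5 measured genes lies on the substituted chromosome: on GRCm38.p6 Ptgs2 lies on chromosome 1, Hpgds on chromosome 6, and Ptgds, Ptges and Ptgis on chromosome 2.

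Prostaglandins are lipid signals made from arachidonic acid, which phospholipases release from membranes. The cyclooxygenases Ptgs1 and Ptgs2 turn it into the shared intermediate PGH2, and terminal synthases turn PGH2 into single products. Ptgds, a lipocalin, and Hpgds, a glutathione-dependent enzyme of blood cells, both make PGD2. Ptges makes PGE2, and Ptgis, a P450 enzyme, makes prostacyclin (PGI2). In the fetal mouse testis PGD2 is known to promote the nuclear entry and expression of SOX9, the Sertoli cell determinant, and SOX9 is known to bind the Ptgds promoter.

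The promoters of both PGD2 synthases and of Ptges are shown because SOX9 is a known regulator of Ptgds, because Ptgds and Ptges rose with stage, and because Hpgds makes the same product as Ptgds and was not called. Each window runs 5′ to 3′ from 250 bases before to 50 bases after 1 RefSeq start of the gene (GRCm38.p6, minus strand). The windows lie at chr2:25469700-25469999 for Ptgds, chr2:30903248-30903547 for Ptges and chr6:65144681-65144980 for Hpgds. The annotated genes reach further upstream, to base 25470110 for Ptgds, 30931020 for Ptges and 65144981 for Hpgds, and other starts were not searched. Capitals mark a match to the SOX core ACAAAG or ACAATG, searched on both strands.
Ptgds: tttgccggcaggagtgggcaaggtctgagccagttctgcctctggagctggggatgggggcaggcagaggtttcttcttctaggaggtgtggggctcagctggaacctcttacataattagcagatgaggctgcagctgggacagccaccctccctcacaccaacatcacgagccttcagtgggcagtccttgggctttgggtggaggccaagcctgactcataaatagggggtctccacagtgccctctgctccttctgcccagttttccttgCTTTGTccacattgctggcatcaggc
Ptges: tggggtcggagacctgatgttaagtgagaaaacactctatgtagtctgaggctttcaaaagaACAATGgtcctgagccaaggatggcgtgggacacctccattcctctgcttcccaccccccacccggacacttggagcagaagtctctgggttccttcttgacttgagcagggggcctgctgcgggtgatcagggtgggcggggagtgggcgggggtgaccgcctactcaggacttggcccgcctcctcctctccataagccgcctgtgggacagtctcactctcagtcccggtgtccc
Hpgds: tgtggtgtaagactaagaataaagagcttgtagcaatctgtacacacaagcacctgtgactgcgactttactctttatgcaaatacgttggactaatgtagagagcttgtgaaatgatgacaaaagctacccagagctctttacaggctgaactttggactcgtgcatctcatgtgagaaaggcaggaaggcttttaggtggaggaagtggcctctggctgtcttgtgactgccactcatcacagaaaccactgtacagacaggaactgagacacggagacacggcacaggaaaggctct
The Ptgds window holds 1 match, ACAAAG read on the opposite strand, at bases 275 to 280 and thus after the start. The Ptges window holds 1 match to ACAATG at bases 63 to 68, and the Hpgds window holds none. The windows of Ptgs1 and Ptgs2, not shown, hold none either. No window was found for Ptgis, which also rose with stage, so a link between the cores and the rise was not tested. Of 32851 promoter windows of this length, 28.6% hold at least 1 of these cores on either strand. A further motif, the nuclear receptor core AGGTCA (16.3% of windows on either strand), is not in any of the 5 windows found for the listed genes.

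The data are log2 signals, and a difference of 1 log2 unit is a doubling. Array medians lay between 8.1 and 8.27. Markers of the labelled organ were bright at each stage: over the 12 arrays the mean log2 signal of 8 Sertoli cell genes ran from 9.97 to 10.28, that of 4 fetal Leydig cell genes from 10.83 to 13.26, and that of 4 germ cell genes from 10.40 to 12.17. Replicate 1 of 129 at E13.5 stood apart in its 18S rRNA control signal, at 9.69 against 6.88 to 8.38 on the other arrays. Both 129 arrays of E15.5 stood apart in skin and muscle genes, at a mean of 10.35 on each array over 7 skin genes, against 7.63 to 8.12 on the other 10 arrays.

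By the brightest probe sets, Ptgds and Ptgis rose with stage in both strains, and Ptges was called in M19 only. Hpgds and Ptgs2 did not pass the test between stages by these probe sets. From E13.5 to E17.5, 3 of 5 genes rose in M19, where 10.2% of all genes tested were called higher, and 2 of 5 rose in 129, where 6.9% were called higher. No strain difference passed the test in any of the 5 genes at any stage. Differences were tested with limma over all 45037 probe sets and are given as M19 minus 129 or later minus earlier stage, with the standard error of the model, and a call needs a Benjamini-Hochberg adjusted p under 0.05.

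**Figure D1:**
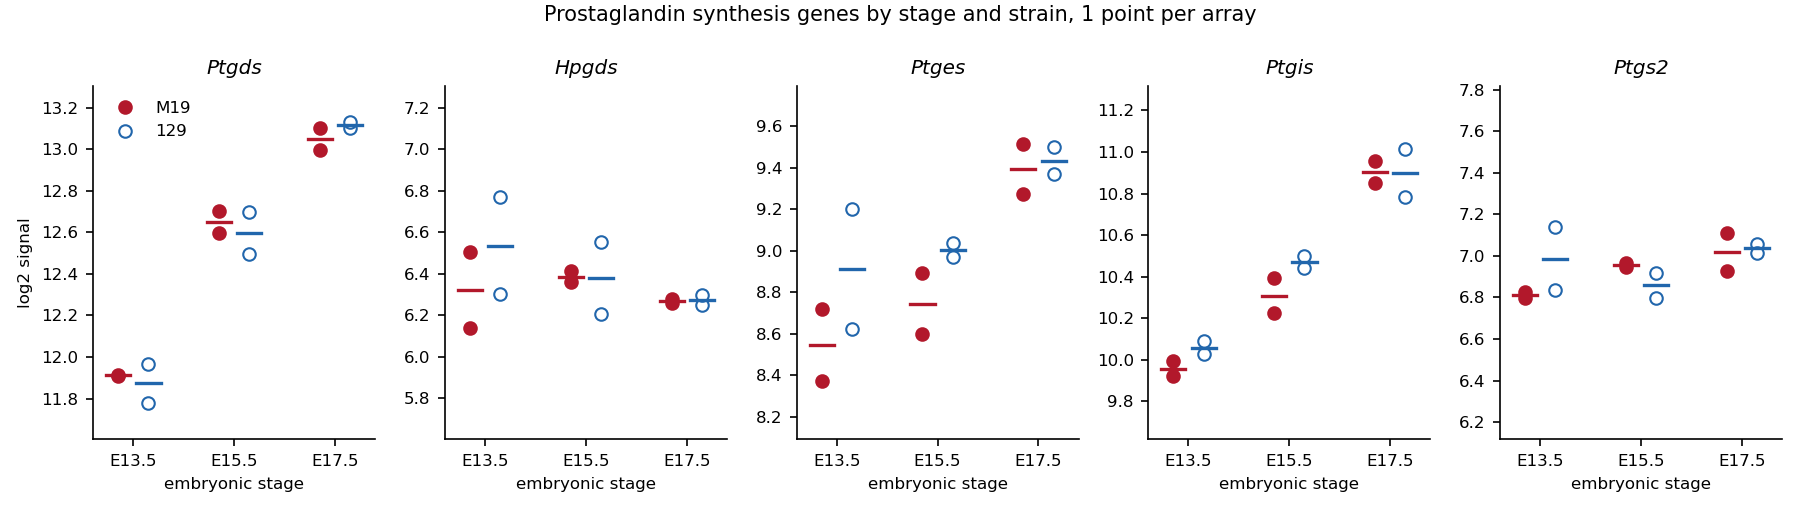
Log2 signal of the 5 measured prostaglandin synthesis genes by embryonic stage, 1 point per array, with M19 filled and left of 129 (open) at each stage and bars at the means of 2 arrays. All panels span the same number of log2 units at different heights. Ptgds and Ptgis rise at each stage without overlap between stages, Ptges is highest at E17.5, and Hpgds and Ptgs2 show no called change.

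Ptgds had signals of 11.91 and 11.91 at E13.5, 12.70 and 12.60 at E15.5, and 13.10 and 13.00 at E17.5 in M19. In 129 its signals were 11.78 and 11.97 at E13.5, 12.49 and 12.70 at E15.5, and 13.10 and 13.13 at E17.5. All 4 arrays of each later stage lay above all 4 of the earlier stage, and the strains lay close together within each stage. Such a rise without overlap between the 3 stages was seen for 2.46% of all genes.

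Over the whole span Ptgds rose by 1.14 ± 0.12 (SE) in M19, or 2.20-fold (limma adjusted p = 0.000139), and by 1.24 ± 0.12 in 129, or 2.36-fold (adjusted p = 8.32e-05). The step called in both strains was that between E13.5 and E15.5. There Ptgds rose by 0.74 ± 0.12 in M19 (adjusted p = 0.00384) and by 0.72 ± 0.12 in 129 (adjusted p = 0.00521), as the only 1 of 5 genes called in either strain, against 5.74% of genes called higher in M19 and 4.46% in 129. From E15.5 to E17.5 the difference was 0.40 ± 0.12 in M19 (adjusted p = 0.119) and 0.52 ± 0.12 in 129 (adjusted p = 0.0621), short of the threshold in both. The early call was lost without M19 E13.5 replicate 2 (adjusted p = 0.0510) or M19 E15.5 replicate 1 (0.0553) in M19, and without 129 E15.5 replicate 2 (0.0527) in 129. Both steps in 129 rest on the E15.5 arrays with high skin and muscle genes, whose part in them was not tested. The span does not use those arrays, and without both of them in the fit it was still called in 129, at 1.24 ± 0.12 (adjusted p = 0.000122).

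The second probe set of Ptgds also rose with stage in both strains. It had means of 10.96 ± 0.02, 11.73 ± 0.17 and 12.14 ± 0.31 at E13.5, E15.5 and E17.5 in M19 (SD, n = 2 each) and of 10.77 ± 0.04, 11.50 ± 0.07 and 12.24 ± 0.18 in 129. Its rise over the span was 1.18 ± 0.16 in M19 (limma adjusted p = 0.000763) and 1.47 ± 0.16 in 129 (adjusted p = 0.000181). The late step in 129 was called with this probe set, at 0.75 ± 0.16 (adjusted p = 0.0415).

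Hpgds, the other PGD2 synthase, lay far below the array medians on all 12 arrays and showed no called change. Its signals in M19 were 6.14 and 6.50 at E13.5, 6.36 and 6.41 at E15.5, and 6.28 and 6.26 at E17.5. In 129 they were 6.77 and 6.30 at E13.5, 6.55 and 6.21 at E15.5, and 6.25 and 6.30 at E17.5. Between E13.5 and E17.5 the difference was -0.05 ± 0.18 in M19 (95% interval -0.45 to 0.34) and -0.26 ± 0.18 in 129 (-0.65 to 0.13), neither of them called. Hpgds is measured by 1 probe set, which was not shown to lie above background, so that these values do not bound a change of the transcript.

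Ptgis, the prostacyclin synthase, followed a course like that of Ptgds. Its signals in M19 were 9.99 and 9.92 at E13.5, 10.39 and 10.22 at E15.5, and 10.96 and 10.85 at E17.5. In 129 they were 10.03 and 10.09 at E13.5, 10.50 and 10.44 at E15.5, and 10.78 and 11.01 at E17.5. Again no array of a later stage lay below one of an earlier stage in either strain.

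From E13.5 to E17.5 Ptgis rose by 0.94 ± 0.12 in M19, or 1.93-fold (limma adjusted p = 0.000567), and by 0.84 ± 0.12 in 129, or 1.79-fold (adjusted p = 0.00136). Its early step was 0.35 ± 0.12 in M19 (adjusted p = 0.151) and 0.41 ± 0.12 in 129 (adjusted p = 0.0938). Its late step was called in M19, at 0.59 ± 0.12 (adjusted p = 0.0303), as 1 of 5 genes against 1.45% of all genes called higher there. In 129 the late step was 0.43 ± 0.12 (adjusted p = 0.128), and 0 of 5 genes were called, against 1.18% of all genes called higher, with 2 of 5 at an unadjusted p under 0.05. The late call in M19 was lost without any 1 of the M19 arrays (adjusted p = 0.0703 to 0.222) and with median centring of the arrays (0.0630). Ptgis is measured by 1 probe set.

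Ptges, the inducible PGE2 synthase, was highest at E17.5. In M19 its signals were 8.72 and 8.37 at E13.5, 8.60 and 8.89 at E15.5, and 9.27 and 9.52 at E17.5. In 129 they were 9.20 and 8.62 at E13.5, 9.04 and 8.97 at E15.5, and 9.37 and 9.50 at E17.5. The E13.5 and E15.5 arrays overlapped, and all 4 E17.5 arrays lay above them.

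Between E13.5 and E17.5 Ptges rose by 0.85 ± 0.20 in M19, or 1.80-fold (limma adjusted p = 0.0180), while in 129 the difference was 0.52 ± 0.20 (adjusted p = 0.149). The array with the high 18S signal carried the highest E13.5 value of Ptges, and without it the 129 difference was 0.81 ± 0.18 (adjusted p = 0.0254). The M19 call was lost without M19 E13.5 replicate 2 (adjusted p = 0.181) or M19 E17.5 replicate 2 (0.104). The second probe set of Ptges was called in both strains, at 0.67 ± 0.17 in M19 (adjusted p = 0.0241) and 0.75 ± 0.17 in 129 (adjusted p = 0.0171). The third was not called, at 0.41 ± 0.15 in M19 (adjusted p = 0.0936) and 0.12 ± 0.15 in 129 (adjusted p = 0.717).

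**Figure D2:**
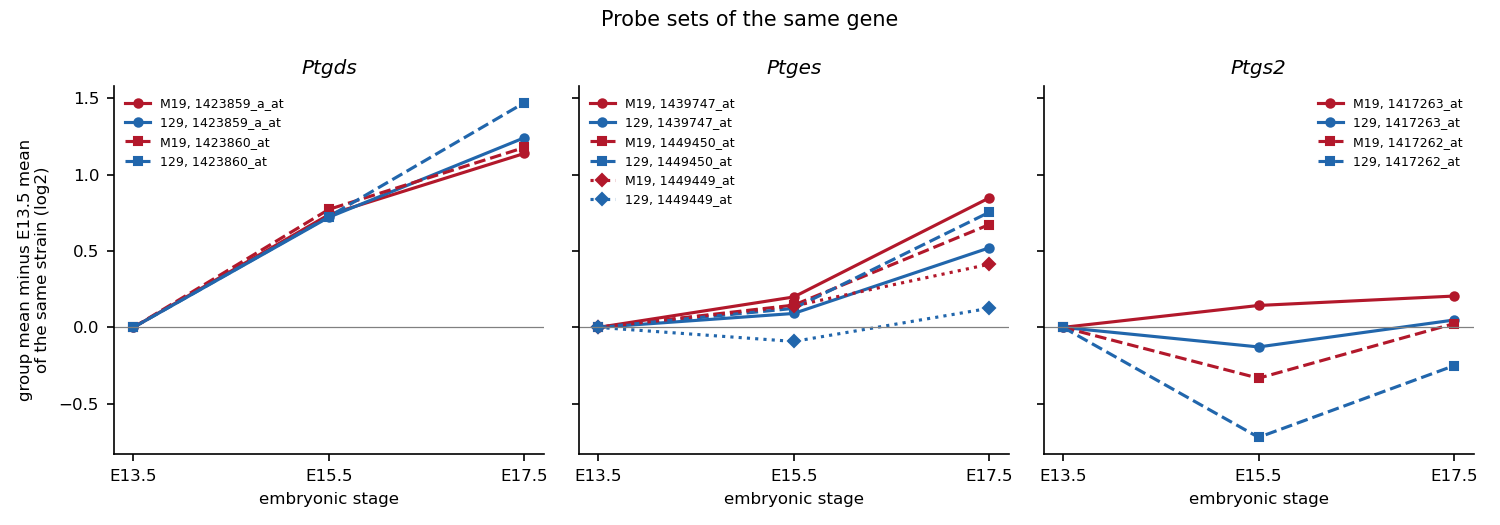
Group means of each probe set of Ptgds, Ptges and Ptgs2 minus the E13.5 mean of the same strain, in log2 units, by stage. M19 is red and 129 blue, and line style marks the probe set. Both Ptgds probe sets end between 1.14 and 1.47, the 3 Ptges probe sets between 0.12 and 0.85, and the 2 Ptgs2 probe sets part at E15.5.

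Ptgs2, the inducible cyclooxygenase, was dim and its probe sets did not match. The brighter one had signals of 6.80 and 6.83 at E13.5, 6.95 and 6.97 at E15.5, and 6.93 and 7.11 at E17.5 in M19. In 129 it had 7.14 and 6.84 at E13.5, 6.92 and 6.80 at E15.5, and 7.06 and 7.02 at E17.5. Over the span these give differences of 0.21 ± 0.13 in M19 and 0.05 ± 0.13 in 129, neither of them called. No Ptgs2 probe set was shown to lie above background, so these values do not bound a change of the transcript.

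The dimmer Ptgs2 probe set was lowest at E15.5 in both strains. Its means at E13.5, E15.5 and E17.5 were 5.82 ± 0.06, 5.49 ± 0.06 and 5.85 ± 0.30 in M19 (SD, n = 2 each) and 6.11 ± 0.12, 5.39 ± 0.19 and 5.86 ± 0.003 in 129. It fell by 0.72 on the log2 scale from E13.5 to E15.5 in 129 (SE 0.15, limma adjusted p = 0.0214), and in M19 the difference was -0.33 ± 0.15 (adjusted p = 0.326). The brighter probe set gave -0.13 ± 0.13 for the same step in 129.

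The strains were also averaged to compare the steps, in contrasts chosen after the values were seen. Averaged over both strains, 2 of 5 genes rose from E13.5 to E15.5, where 9.8% of all genes were called higher and 4.52% lower, and 3 of 5 rose from E15.5 to E17.5, where 4.46% were called higher and 4.58% lower. Ptgds rose in both steps, by 0.73 ± 0.08 (limma adjusted p = 0.000211) and 0.46 ± 0.08 (adjusted p = 0.00935), and so did Ptgis, by 0.38 ± 0.09 (adjusted p = 0.0145) and 0.51 ± 0.09 (adjusted p = 0.00565). By its brightest probe set, Ptges differed by 0.15 ± 0.14 in the early step (adjusted p = 0.674) and rose by 0.54 ± 0.14 in the late step (adjusted p = 0.0437). In the late step its second probe set was also called, at 0.58 ± 0.12 (adjusted p = 0.0154). The third was not, at 0.25 ± 0.10 (adjusted p = 0.195). Both averaged steps use the E15.5 arrays with high skin and muscle genes, whose part in them was not tested.

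The sizes of the steps were not shown to differ. The late step minus the early step was -0.27 ± 0.15 for Ptgds (limma adjusted p = 0.443), 0.39 ± 0.24 for Ptges (adjusted p = 0.509) and 0.13 ± 0.15 for Ptgis (adjusted p = 0.769). Of 5 genes 0 were called, against 1.4% of all genes with a late step called above the early one and 4.99% below it. The dimmer probe set of Ptgs2 was the 1 of 9 with a called difference, at 0.94 ± 0.19 (adjusted p = 0.0145). It fell by 0.53 in the early step (SE 0.11, adjusted p = 0.00878) and rose by 0.41 ± 0.11 in the late step (adjusted p = 0.0453), while the brighter probe set gave 0.01 ± 0.09 and 0.12 ± 0.09.

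No strain difference passed the test in these genes. At E13.5 0 of 5 were called, against 0.033% of all genes, at E15.5 0 of 5 against 0.682%, at E17.5 0 of 5 against 0.0934%, and over the 3 stages 0 of 5 against 0.462%. At an unadjusted p under 0.05 limma called 0 of 5 in each of these comparisons too. Fits on the 4 compared arrays alone also called 0 at each stage.

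For Ptgds the difference over the 3 stages, M19 minus 129, was 0.01 ± 0.07 with a 95% interval of -0.14 to 0.16. The interval was -0.24 to 0.07 for Ptgis, -0.19 to 0.13 for Ptgs2 and -0.30 to 0.16 for Hpgds. The dim Ptgs2 and Hpgds probe sets were not shown to lie above background, so their intervals do not bound a strain difference of the transcripts. Ptges had the widest margin, at -0.22 ± 0.11 (-0.47 to 0.03). Its mean was lower in M19 at each stage, with differences of -0.37 ± 0.20 at E13.5, -0.26 ± 0.20 at E15.5 and -0.04 ± 0.20 at E17.5, and an adjusted p of 1.00 over the stages.

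In some genes both arrays of 1 strain lay above both of the other. This held for Ptgis and Ptgs2 at E13.5, for Ptges, Ptgis and Ptgs2 at E15.5 and for Ptgds at E17.5, while 25.6%, 36.7% and 23.4% of all genes were so placed at E13.5, E15.5 and E17.5. These are gaps of the brightest probe sets, and each lay lower in M19, except that of Ptgs2 at E15.5. Other probe sets differed. The second Ptgds probe set lay higher in M19 without overlap at E13.5 (0.19 ± 0.16) and E15.5 (0.24 ± 0.16), and overlapped at E17.5. The dimmer Ptgs2 probe set lay lower in M19 at E13.5 and overlapped at E15.5. The second Ptges probe set lay lower in M19 at E15.5, and the third at E13.5. The E15.5 gaps stand in a comparison in which 6 of 7 skin and 5 of 5 skeletal muscle genes were called lower in M19, and their part in those gaps was not tested.

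The rise with stage was not shown to differ between the strains. The strain by stage interaction called 0 of 5 genes, against 0.203% of all genes, with 0 of 5 at an unadjusted p under 0.05 and an adjusted p of 1.00 for each gene. The M19 and 129 comparisons of stages share no array.

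**Figure D3:**
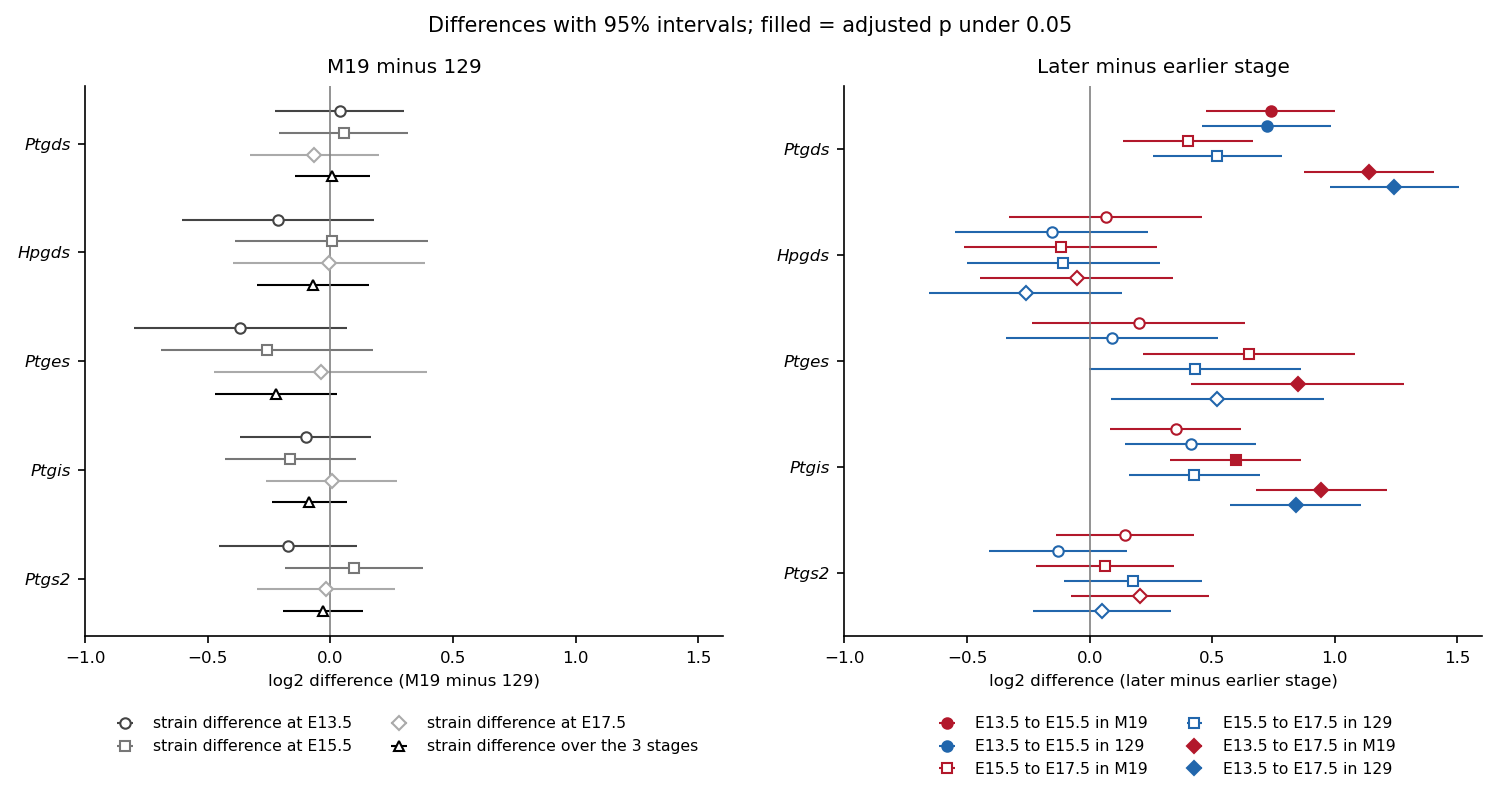
Log2 differences of the 5 genes with 95% intervals from limma, M19 minus 129 on the left and later minus earlier stage on the right, where M19 is drawn above 129. Filled symbols have an adjusted p under 0.05. All strain intervals include 0. Filled symbols occur only among the stage differences of Ptgds, Ptges and Ptgis, and not all of these are filled.

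In order of their group means, the groups of Ptgds and Ptgis sorted by stage, and those of the brightest Ptges probe set did not at the earlier stages. For Ptgds the groups ran 129 E13.5 (11.87 ± 0.13), M19 E13.5 (11.91 ± 0.001), 129 E15.5 (12.60 ± 0.14), M19 E15.5 (12.65 ± 0.08), M19 E17.5 (13.05 ± 0.07) and 129 E17.5 (13.12 ± 0.02; SD, n = 2 each). Neighbours of the same stage differed by less than 1 SD of the wider group, and neighbours of different stages did not overlap. For Ptgis the order was M19 then 129 at E13.5 and E15.5 (9.96 ± 0.05 and 10.06 ± 0.05, then 10.31 ± 0.12 and 10.47 ± 0.04) and 129 then M19 at E17.5 (10.898 ± 0.16 and 10.902 ± 0.08). For Ptges, M19 E13.5 (8.55 ± 0.25) and M19 E15.5 (8.75 ± 0.21) stood lowest, followed by 129 E13.5 (8.91 ± 0.41), 129 E15.5 (9.00 ± 0.05), M19 E17.5 (9.39 ± 0.17) and 129 E17.5 (9.43 ± 0.09).

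The genes most like Ptgds over the 12 arrays, among 12076 genes of at least median signal, were Gamt, Jam2 and Ndrg2, with Pearson's r of 0.995, 0.994 and 0.993. These are descriptions over arrays that share 6 groups and 3 stages. Gamt makes creatine, Jam2 is a junctional adhesion molecule, and Ndrg2 belongs to the N-myc downstream-regulated family. Jam2 rose by 1.98 ± 0.13 from E13.5 to E17.5 in M19 and by 2.21 ± 0.13 in 129, Ndrg2 by 1.41 ± 0.13 and 1.61 ± 0.13, and Gamt by 0.82 ± 0.12 and 0.87 ± 0.12. No other member had group means that spanned 1 log2 unit.

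Of the other genes of the pathway, 23 of 25 listed were measured, and most did not pass the test between stages. Each was tested by its brightest probe set alone, as were the cell type markers below. Further probe sets, which several of these genes have, were not checked. In the early step, from E13.5 to E15.5, 2 were called higher and 1 lower in each strain. Of all genes, 5.74% were called higher there and 1.66% lower in M19, and 4.46% and 1.84% in 129. In the late step 1 was called higher and 1 lower in each, against 1.45% and 1.79% of all genes in M19 and 1.18% and 1.24% in 129. Over the span 1 was called higher and 1 lower in M19, against 10.2% and 5.26% of all genes. In 129 the span had 1 higher and 2 lower, against 6.9% and 4%. The list's median difference over the span was 0.09 in M19 and -0.01 in 129, beside 0.10 and 0.01 over all genes. In the strain comparisons 0 of 23 were called by limma at any stage, with 0, 0 and 1 at an unadjusted p under 0.05 at E13.5, E15.5 and E17.5.

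Upstream of the cyclooxygenases, Pla2g5, a secreted phospholipase that frees arachidonate, had the steepest rise on the list. Its signals were 7.74 and 7.71 at E13.5, 9.36 and 9.28 at E15.5, and 10.01 and 10.00 at E17.5 in M19, and 7.65 and 7.76, 9.46 and 9.52, and 10.33 and 10.24 in 129. Each stage stood clear of the one before it. The rise over the span was 2.28 ± 0.11 in M19 (limma adjusted p = 3.39e-07) and 2.58 ± 0.11 in 129 (adjusted p = 1.46e-07), and both steps were called in both strains. The cytosolic phospholipase Pla2g4a, which serves the cyclooxygenases in many cells, was not called, with -0.11 ± 0.19 in M19 and 0.10 ± 0.19 in 129.

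Among the other terminal enzymes, the second PGE2 synthase Ptges2, the thromboxane synthase Tbxas1, the reductases Cbr1 and Akr1c18, and Prxl2b, which makes PGF2α, were not called between any 2 stages. Of 9 receptor genes 1 was called. Ptger4, which encodes the PGE2 receptor EP4, had signals of 9.88 and 9.98 at E13.5, 8.64 and 8.41 at E15.5, and 8.00 and 8.54 at E17.5 in M19, and 9.63 and 10.16, 8.20 and 8.75, and 7.99 and 7.73 in 129. All 4 E13.5 arrays lay above the later ones, and it fell by 1.66 on the log2 scale over the span in M19 (SE 0.24, limma adjusted p = 0.00120) and by 2.03 in 129 (SE 0.24, adjusted p = 0.000340). The PGD2 receptors Ptgdr and Ptgdr2 had spans of 0.09 ± 0.14 and 0.17 ± 0.20 in M19 and of 0.19 ± 0.14 and -0.01 ± 0.20 in 129, none of them called. The prostacyclin receptor Ptgir was not called either. Signals ran from 7.29 to 7.66 for Ptgdr, 7.24 to 7.90 for Ptgdr2 and 7.10 to 7.52 for Ptgir, below the array medians on every array. Those of Tbxas1, Ptger1 and Ptger3 also lay below the medians on every array. None of these probe sets was shown to lie above background, so their values do not bound a change of the transcripts.

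Of the genes for transport and breakdown, Ptgr1, a reductase that inactivates prostaglandin and leukotriene metabolites, had a peak at E15.5. Its signals were 11.57 and 11.56 at E13.5, 12.87 and 12.77 at E15.5, and 11.27 and 11.42 at E17.5 in M19, and 11.60 and 11.83, 12.48 and 12.64, and 11.25 and 11.26 in 129. It rose by 1.25 ± 0.12 in the early step in M19 (limma adjusted p = 0.000119) and by 0.84 ± 0.12 in 129 (adjusted p = 0.00211), and then fell by 1.47 in M19 (adjusted p = 0.000204) and by 1.30 in 129 (adjusted p = 0.000360). At E17.5 it lay below E13.5 in 129, by a called -0.46 (adjusted p = 0.0422). Hpgd, the dehydrogenase that starts prostaglandin breakdown, differed by -0.77 ± 0.24 in the early step in M19 (adjusted p = 0.105) and by -0.92 ± 0.24 in 129 (adjusted p = 0.0573). The transporters Slco2a1 and Abcc4 were not called.

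**Figure D4:**
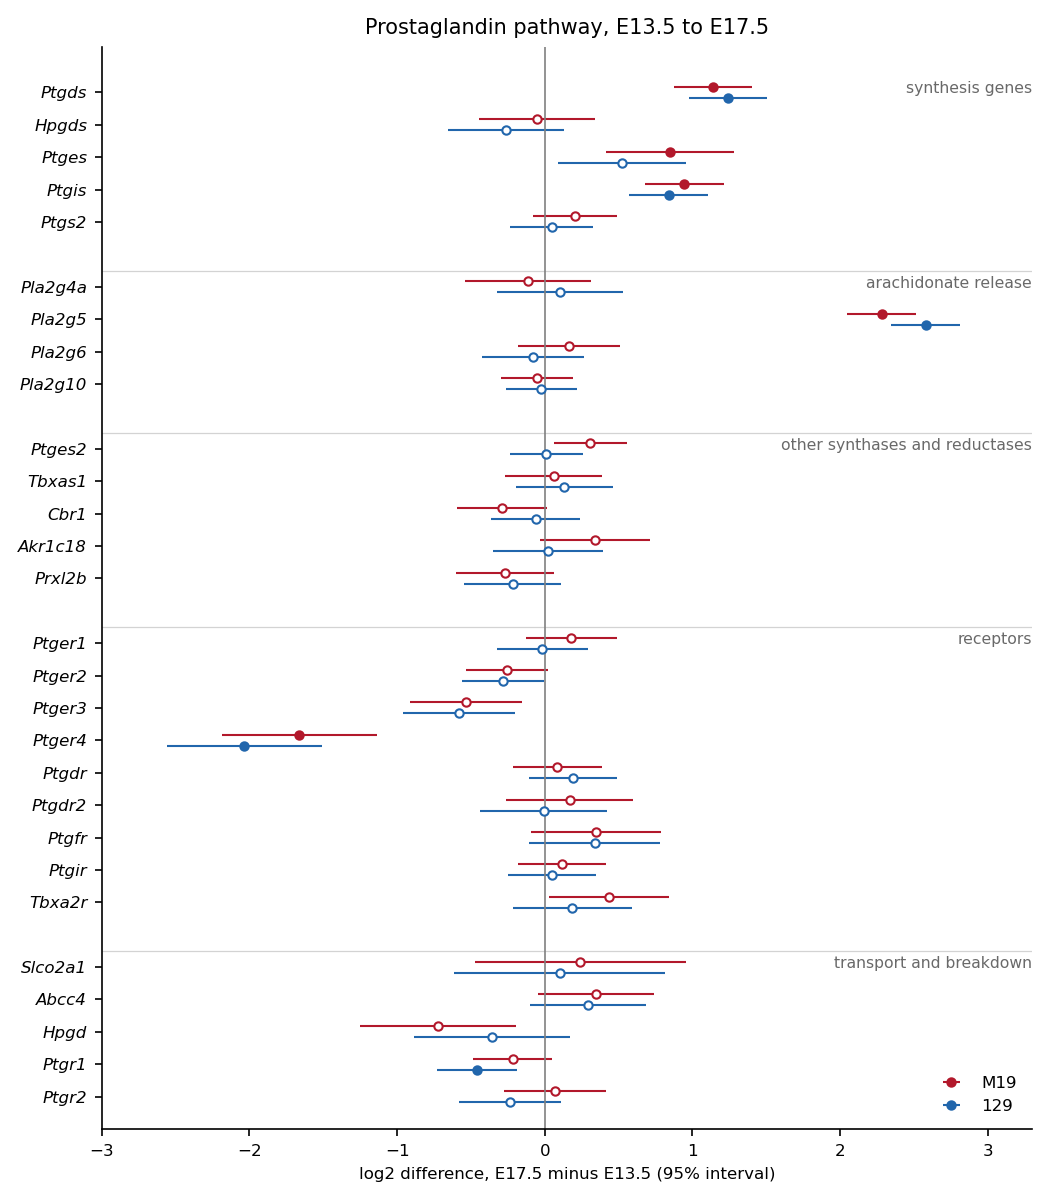
Log2 difference of E17.5 minus E13.5 with 95% intervals for the 5 measured synthesis genes and 23 other prostaglandin pathway genes, grouped by role, with M19 drawn above 129. Filled symbols have an adjusted p under 0.05. Pla2g5 lies highest at 2.28 in M19 and 2.58 in 129, and Ptger4 lowest at -1.66 and -2.03.

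Several cell type markers moved over the same stages, and in whole organs more cells of a type and more RNA per cell cannot be told apart. Between E13.5 and E17.5, 4 of 4 measured fetal Leydig cell genes rose in both strains, as did 3 of 4 peritubular muscle genes and 4 of 5 interstitial mesenchyme genes. Of all genes, 10.2% were called higher over this span and 5.26% lower in M19, and 6.9% and 4% in 129. The mean log2 signal of the Leydig list ran from 10.83 to 10.89 at E13.5, 12.78 to 12.81 at E15.5 and 13.20 to 13.26 at E17.5 in M19, and from 11.16 to 11.22, 12.60 to 12.67 and 13.03 to 13.11 in 129. The muscle list stood at 9.44 to 9.54, 10.44 to 10.46 and 11.16 in M19, and at 9.64 to 9.84, 10.51 to 10.57 and 11.23 to 11.30 in 129. The means of both lists rose without overlap between stages.

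The 8 Sertoli genes moved both ways, with 3 higher and 3 lower at E17.5 than at E13.5 in each strain. Sox8, a relative of Sox9, rose by 1.04 in M19 and 1.13 in 129, and Gata4, a transcription factor of gonadal somatic cells, by 0.71 and 0.64. Amh, the anti-Müllerian hormone, differed by 2.19 in M19 (called) and 1.05 in 129 (not called), and Dhh, a hedgehog ligand, by 0.27 in M19 (not called) and 0.47 in 129 (called). Called lower were the growth factor gene Fgf9, at -1.95 in M19 and -1.65 in 129, the tight junction gene Cldn11, at -1.27 and -1.44, and the transcription factor gene Wt1, at -0.65 and -0.54. Sox9 itself differed by -0.13 in M19 and -0.29 in 129, neither called. The list's mean, between 9.97 and 10.28 on all arrays, averages over these opposite changes.

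The 4 measured germ cell genes were also split, with 1 higher and 3 lower at E17.5 than at E13.5 in M19, and 1 higher and 2 lower in 129. The helicase gene Ddx4 rose by 1.09 in M19 and 0.87 in 129, while the pluripotency genes Dppa3 and Pou5f1 fell, with differences of -3.46 in M19 and -3.43 in 129 for Dppa3 and of -0.90 and -1.52 for Pou5f1. Of 3 mesonephros and duct genes 2 fell in both strains, with a list median of -1.71 in M19 and -1.90 in 129. Of 3 red blood cell genes 2 fell and 1 rose in both strains, with a list median of -4.78 in M19 and -4.32 in 129. Those that fell were the embryonic globin genes Hbb-y and Hbb-bh1, and the one that rose was the haem synthesis gene Alas2, by 1.71 in M19 and 1.39 in 129. Of 5 endothelial genes 1 rose and 1 fell in M19, and 1 rose in 129.

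For blood cells, in which Hpgds is best known, 0 of 5 macrophage genes were called over the span in either strain. Of all genes, 15.4% were called over the span in M19 and 10.9% in 129. The mean of the macrophage genes lay between 8.46 and 8.79 in M19 and between 8.63 and 8.92 in 129. Among them Cd68 (7.18 to 7.69) and Cx3cr1 (7.11 to 7.72) lay below the array medians on all 12 arrays. Among 7 mast cell and megakaryocyte genes 2 were called lower in M19 and 1 in 129, and 0 were called higher. The list's median difference was 0.20 in M19 and 0.12 in 129. Gata2 changed most, from a mean of 11.32 to 8.77 in M19 and from 11.54 to 8.77 in 129. Pf4 also had lower means at E17.5 in both strains. Cpa3, Mcpt4, Cma1 and Itga2b had higher means there in both strains, and Fcer1a in M19 only. The part of any of these cell types in the values of the prostaglandin genes was not tested.

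**Figure D5:**
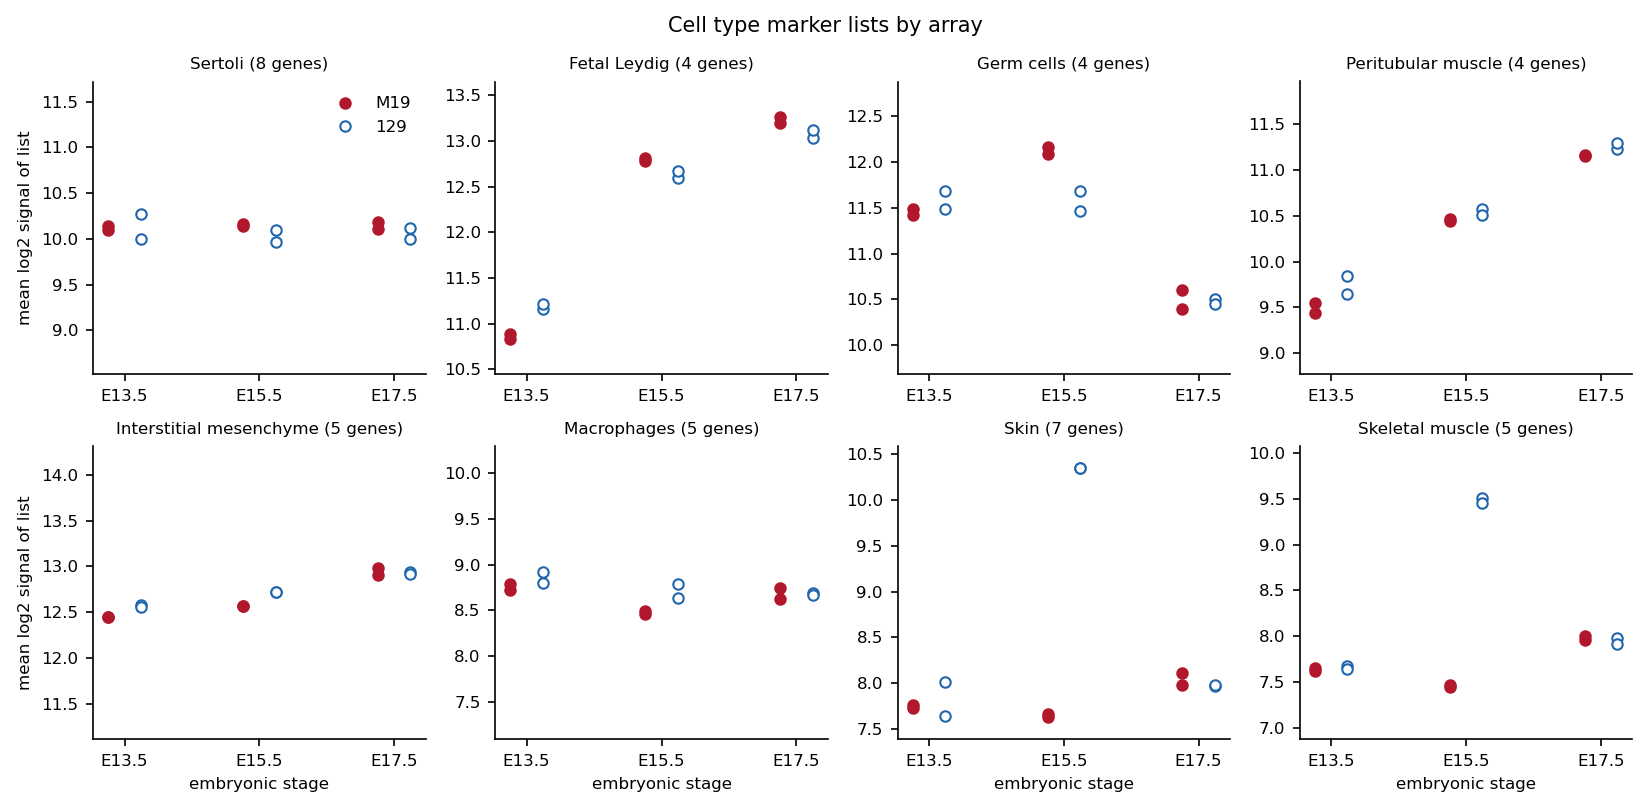
Mean log2 signal of 8 cell type marker lists on each array by stage, with M19 filled and left of 129 (open). The Leydig and peritubular muscle lists rise with stage, the mean of the Sertoli list, whose genes moved both ways, lies between 9.97 and 10.28, and the skin and skeletal muscle lists are high on both 129 arrays of E15.5.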

How the data were processed

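Per the labels' protocols, total RNA of pooled testes was extracted, labelled with biotin and hybridised to Affymetrix mouse expression arrays. The authors deposited 1 value per probe set and array. The summary method, background correction, normalization and log base are not given in the sources used here. The deposited values are taken as log2 signal, since they run up to 15 with array medians of 8.1 to 8.27. No raw intensities or detection calls were used, and precision is limited by having 2 arrays per group.

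The 64 control probe sets were left out, leaving 45037. Gene names came from the platform annotation, updated by gene ID through RefSeq (GRCm38.p6). Group means were fitted to all 12 arrays without a replicate block with limma 3.58.1 in R 4.3.3 and eBayes (6 residual and 4.82 prior degrees of freedom), and p-values are two-sided and Benjamini-Hochberg adjusted over all 45037. The procedure was tested on simulated data. Plots used Python 3.11.15, pandas 2.3.3 and matplotlib 3.10.9. Intervals are unadjusted 95% intervals of single contrasts.

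The members, the pathway and marker lists and the tests were chosen with earlier results of these data known. All members are named, along with up to 5 called pathway genes per comparison and the 3 genes most correlated with each member whose group means span at least 1 log2 unit. Alternatives were 2 scalings, a filter on dim probe sets, another variance prior, a replicate block, gene means over probe sets, leaving out each array, the 4 compared arrays alone, and strain effects without E15.5. A fit without both 129 arrays of E15.5 was added after the data were seen.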

Additional observations from a re-analysis of the deposited data

How the results depend on the processing

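The 8 calls among the 50 gene results kept their sign in all 151 alternative values, and 139 of these were called. No gene was called in any strain comparison or in the interaction under any alternative. From E13.5 to E17.5, leaving out 1 array gave 2 to 3 called genes in M19 and 2 to 3 in 129, and the other alternatives gave 3 in M19 and 2 in 129. From E13.5 to E15.5, leaving out 1 array gave 0 to 1 called genes in each strain. In 129 that step had 2 calls with dim probe sets left out, which also removes Hpgds and Ptgs2, and 3 with the mean of all probe sets of a gene, where Ptgs2 was among them at -0.42. From E15.5 to E17.5 in M19, leaving out 1 array gave 0 to 2 calls, median centring 0 and the trend and robust prior 2. In 129 that step had 1 call, Ptgds, with dim probe sets left out, with the mean of probe sets and with the trend and robust prior, and 0 to 1 when 1 array was left out. Fewer features are tested with dim probe sets left out or averaged per gene. The cause of the other changes was not tested. Quantile normalization changed no count. The titles do not say what the replicate numbers stand for. Deviations of same-numbered arrays correlated at -0.373 to 0.539 over 15 pairs of groups, with 6 above 0.1 and 7 below -0.1. Whether same-numbered arrays of some groups share a batch was not tested. With the replicate block the counts were 3 in M19 and 2 in 129 from E13.5 to E17.5, and no call changed.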
